A study of Mus musculus with 4 samples.

Results

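The 9 genes described here encode a cytokine pathway of reactive astrocytes and a secreted product often measured with it: the receptor chains Il6st, Osmr and Lifr, the kinases Jak1 and Jak2, the transcription factors Stat3 and Cebpd, the inhibitor Socs3, and the protease inhibitor Serpina3n. They were taken by symbol from the 55471 genes that each library lists, and all 9 were present and passed the filter on low counts. Polyadenylated RNA bound to tagged ribosomes was sequenced from mouse brain, 2 libraries from mice on cuprizone and 2 labelled mock. All 4 libraries carry the labels astrocytes, batch 1 and 3 weeks, and all mice had the genotype GFAP-Cre+/- Rpl22HA/wt, in which Cre under the GFAP promoter switches on an HA tag on the ribosomal protein Rpl22. Cre recombination is permanent, so a cell whose precursor once used the promoter can carry the tag too. The series' design text describes males aged 8 to 9 weeks, chow with 0.2% cuprizone by weight against normal chow, and dissected corpus callosum, but with brains taken at week 5, 5.5 or 7. Whether those times or the labelled 3 weeks apply was not resolved. Cuprizone is a copper chelator that kills oligodendrocytes and so removes myelin.

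Cytokines of the interleukin-6 family, such as LIF, CNTF and oncostatin M, signal through the shared chain gp130, encoded by Il6st, paired with a chain that sets which cytokine is bound. The receptor-bound kinases JAK1 and JAK2 then phosphorylate STAT3, which enters the nucleus and switches on genes that include its own inhibitor, Socs3. In astrocytes this pathway is known for driving the reactive state after injury, in which Gfap and Serpina3n typically rise. The comparison asks how RNA for the parts of this pathway on tagged ribosomes differed between the cuprizone and mock groups.

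For Socs3 and Serpina3n, the classical feedback target and the gene with the largest log2 fold in size among the 9, the 250 bases before the transcription start are shown, from RefSeq on GRCm38.p6. Capitals mark letters that match the palindromic STAT motif TTCNNNGAA.
Socs3 (chr11:117969367-117969616, minus strand): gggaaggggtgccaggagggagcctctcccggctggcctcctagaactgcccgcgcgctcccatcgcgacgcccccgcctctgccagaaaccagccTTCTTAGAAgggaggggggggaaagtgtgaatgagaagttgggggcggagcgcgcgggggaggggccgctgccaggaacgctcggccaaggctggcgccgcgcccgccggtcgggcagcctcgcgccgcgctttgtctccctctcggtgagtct
Serpina3n (chr12:104406458-104406707, plus strand): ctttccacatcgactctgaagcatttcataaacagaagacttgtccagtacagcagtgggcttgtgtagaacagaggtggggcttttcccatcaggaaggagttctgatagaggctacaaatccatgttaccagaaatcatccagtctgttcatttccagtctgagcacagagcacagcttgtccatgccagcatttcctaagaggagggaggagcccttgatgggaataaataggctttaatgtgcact
The Socs3 match runs from 154 to 146 bases before the start. In GENCODE M21, on the same assembly, the Socs3 window holds no exon of the coding transcript; it lies within a longer non-coding transcript of Socs3, and 77 of its 250 bases, after the match, are an exon of another non-coding one. No transcript is annotated within the Serpina3n window. Among the 8 genes of the 9 with a window, Socs3 held the only match, and of all 32851 windows of the same length 7.02% hold one. The C/EBP motif TTGCNNAA, searched on both strands, occurred in none of these windows and in 9.56% of all of them. Serpina3n had the lowest G and C content of the members' windows, 46.4% against a median of 52.4% over all windows, and Socs3 had 71.6%. No binding was measured here, and a match of letters is a description only.

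The members of the pathway did not share a direction. In both cuprizone libraries Jak1, Jak2 and Stat3 lay above both mock libraries, and Il6st and Serpina3n lay below both. For Lifr, Cebpd, Socs3 and Osmr the groups overlapped. No member passed the edgeR quasi-likelihood test at an adjusted p under 0.05, where 0.0822% of the 15816 genes tested passed, nor limma-voom, which called 0.297%. Jak1, Jak2, Il6st and Serpina3n had an unadjusted p under 0.05, as did 12.8% of all genes. Groups without overlap were common in this design, at 25.7% of all genes in the higher and 18.9% in the lower direction, so 3 and 2 members of 9 are near the background. With 2 libraries against 2, an exact permutation test of a single gene cannot go below p = 0.333.

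**Figure D1:**
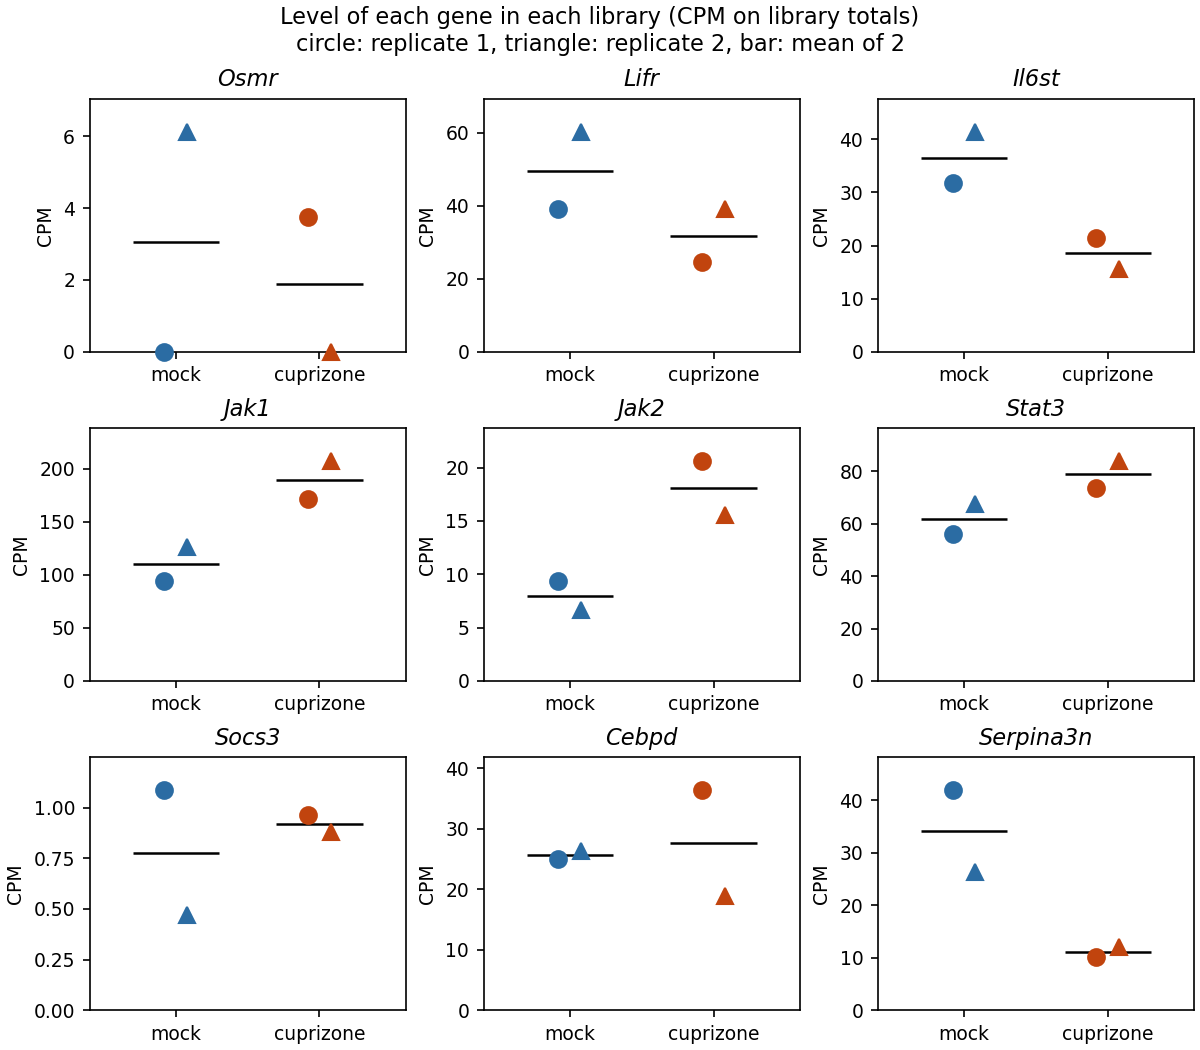
Level of each of the 9 genes as CPM, its counts scaled by the library total (vertical axis), in the 2 mock (blue) and 2 cuprizone (red) libraries; circles are replicate 1, triangles replicate 2 and bars the mean of 2. Serpina3n stands at 10.2 and 12.1 CPM in cuprizone and at 41.8 and 26.3 in mock libraries, while Osmr is at 0 in 1 library of each group.

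The shared receptor chain was lower in both cuprizone libraries, without passing the test. Il6st, which encodes gp130, stood at 21.4 and 15.6 CPM in the cuprizone libraries and at 31.7 and 41.4 CPM in the mock libraries. Every cuprizone value lay below every mock value, with means of 18.5 CPM ± 4.14 and 36.6 ± 6.89 (SD, n = 2 each). The edgeR log2 fold of cuprizone over mock was -1.05 (SE 0.31), with adjusted p = 0.256, and it stayed between -1.29 and -0.83 over the 12 alternative fits, none of which put it past the threshold.

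Lifr, the chain that pairs with gp130 for LIF and CNTF, had 24.5 and 39.0 CPM in cuprizone and 39.0 and 60.3 CPM in mock libraries. The groups overlapped by a hair, since cuprizone replicate 2 had 38.997 CPM and mock replicate 1 had 38.988. With TMM factors, which rescale each library for its composition, the same libraries stood at 38.3 and 40.0 and the groups no longer overlapped. The log2 fold was -0.71 (SE 0.34, edgeR adjusted p = 0.458), and it was -0.34 without mock replicate 2, -0.41 without cuprizone replicate 1 and -1.10 without cuprizone replicate 2.

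Osmr, the chain for oncostatin M, was present in 1 library of each group. Cuprizone replicate 1 had 82 counts (3.76 CPM) and mock replicate 2 had 130 counts (6.13 CPM), while cuprizone replicate 2 and mock replicate 1 had 0, which allows up to 0.126 and 0.136 CPM by counting error alone. Each group thus had 1 library with the transcript and 1 without, and the groups overlapped. The fitted log2 fold of -0.78 had an SE of 2.38, and without 1 library it ran from -9.12 to 8.39, values that rest on a count of 0 and bound nothing. Of the 15816 genes tested, 116 had 0 counts in one cuprizone library and at least 50 in the other, 57 did so in the mock pair, and 2 in both pairs, Osmr being one of them.

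All 7 chains in the list of gp130 receptors had negative log2 folds, whereas 7898 of all 15816 genes did. The list's median log2 fold was -0.78, against 0.00056 for all genes. That median is the fold of Osmr itself (SE 2.38), which its counts of 0 leave undetermined. Il6ra, at 21 and 0 counts on cuprizone and 13 and 9 on mock, had a log2 fold of -0.16 (SE 1.97). Its sign is not determined either. Both groups were free of overlap, in the lower direction, for 4 of the 7 (Il6st, Il11ra1, Cntfr and Il27ra), named after their values were seen. Of all genes tested, 18.9% lay lower in this way. EdgeR called 0 of the 7 over all genes, as did DESeq2 and limma-voom. An unadjusted edgeR p under 0.05 was found for 3 of them and for 12.8% of all genes. Il11ra1, the interleukin-11 chain, had 22.9 CPM ± 1.47 on cuprizone and 37.8 ± 7.35 on mock (SD, n = 2 each), and its log2 fold was -0.79 (SE 0.27, edgeR adjusted p = 0.311). Il27ra had 0 counts in both cuprizone libraries and 28 and 29 counts on mock, at least 10.0-fold lower against a floor of 3 counts per library. Its fold is the lowest of the 7 both as fitted and at that bound, so this choice cannot move the list's median. Leaving out cuprizone replicate 1 gave the list a median of -1.29, and leaving out mock replicate 2 one of -0.35.

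RNA for the cytokines themselves was scarce. Of 10 genes for gp130 cytokines and their soluble partners, Il6, Lif, Osm and Il27 had 0 counts in every library, and 3 could be tested, with 0 called by edgeR, DESeq2 or limma-voom and 0 at an unadjusted p under 0.05. Ctf1, which encodes cardiotrophin-1, had 69 and 27 counts on cuprizone and 0 and 32 on mock (log2 fold 1.43, SE 1.80).

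Jak1 and Jak2 had positive log2 folds, opposite in sign to that of Il6st, and neither passed the edgeR test. Jak1, which acts for gp130 and for interferon receptors, stood at 172 and 207 CPM in the cuprizone libraries and at 94.3 and 126 CPM in the mock libraries. Both cuprizone values lay above both mock values, with means of 190 CPM ± 25.0 and 110 ± 22.3 (SD, n = 2 each). The log2 fold was 0.71 (SE 0.21), with an edgeR adjusted p of 0.261. DESeq2 gave 0.72 and adjusted p = 0.0323, and over the 12 alternatives the adjusted p ran from 0.0323 to 0.670, with DESeq2 alone past the threshold.

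Jak2, the second kinase bound to gp130, had 20.6 and 15.6 CPM on cuprizone and 9.41 and 6.60 CPM on mock. The groups did not overlap, and the cuprizone mean of 18.1 CPM ± 3.56 was 2.26 times the mock mean of 8.00 ± 1.98 (SD, n = 2 each). The log2 fold was 1.10 (SE 0.40), with an edgeR adjusted p of 0.326, and it ran from 0.89 to 1.38 over the alternatives without passing in any. Jak3 and Tyk2, the other Janus kinases, overlapped between the groups and had log2 folds of -0.47 each (SE 1.00 and 1.11). Their means lay between 1.28 and 2.50 CPM, and their mock libraries lay far apart, at 19 and 88 counts for Jak3 and 60 and 14 for Tyk2.

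**Figure D2:**
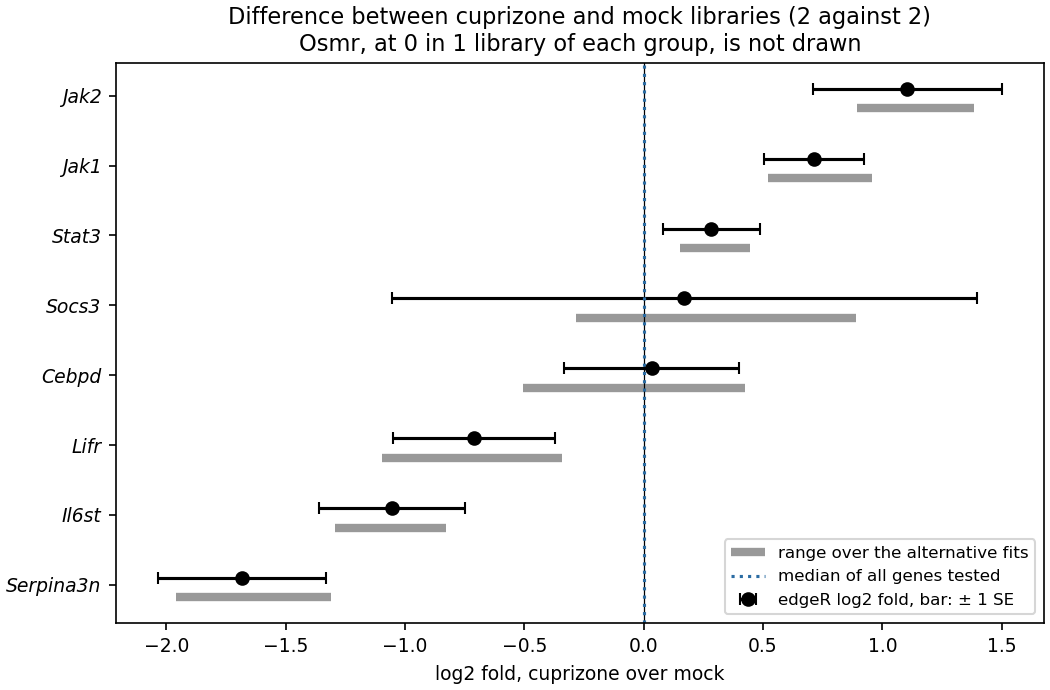
Log2 fold of cuprizone over mock (horizontal axis) for 8 of the 9 genes; black points and bars are the edgeR estimate ± 1 SE, grey bars the range over the alternative fits, and the dotted line the median of all genes tested. Jak1, Jak2 and Stat3 stay above 0 and Lifr, Il6st and Serpina3n below 0 in every fit drawn, while Socs3 and Cebpd cross 0.

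Stat3, the factor at the centre of the pathway, had 73.7 and 84.0 CPM on cuprizone and 55.9 and 67.5 CPM on mock. The groups did not overlap, but the gap between the nearest libraries was smaller than the gap within either pair. The log2 fold of 0.28 (SE 0.20, edgeR adjusted p = 0.651) stayed positive in all 12 alternatives, between 0.15 (mock replicate 1 left out) and 0.45 (mock replicate 2 left out). Transcript level does not show how much STAT3 was phosphorylated.

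Among the 7 STAT genes, 6 had positive log2 folds, with a median of 0.28. EdgeR, DESeq2 and limma-voom called 0 of them, and 0 had an unadjusted p under 0.05. Stat5a, which responds to prolactin and growth hormone among others, had 5.27 and 3.61 CPM on cuprizone and 1.63 and 1.23 on mock, a log2 fold of 1.56 (SE 0.73, edgeR adjusted p = 0.445). Its gene neighbours Stat3, and 23 of the 9735 distinct 50-base stretches of Stat3 transcripts also occur, on the opposite strand, in Stat5a transcripts.

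Socs3, the feedback inhibitor that STAT3 induces, was near the lower end of what these libraries resolve. It had 21 and 21 counts on cuprizone and 24 and 10 on mock, or 0.962 and 0.882 against 1.09 and 0.471 CPM. The 2 cuprizone values lay inside the mock range, and the log2 fold of 0.17 had an SE of 1.23. Without mock replicate 2 the fold was -0.28, so its direction rested on that library.

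The list of 15 inhibitors of cytokine signalling held 14 tested genes, of which 9 had positive log2 folds, with a median of 0.18. EdgeR, DESeq2 and limma-voom called 0 of them, and 1 had an unadjusted p under 0.05. That gene was Pias1, a SUMO ligase that restrains STAT signalling, which was also the most abundant of the list in CPM. Pias1 had 216 and 243 CPM on cuprizone and 162 and 158 on mock, a log2 fold of 0.45 (SE 0.16, edgeR adjusted p = 0.313). The median turned to -0.06 without mock replicate 2 and was 0.36 without mock replicate 1.

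Besides STATs, gp130 feeds the phosphatase SHP2 and the ERK kinases. All 11 genes of that branch were tested, 7 with positive log2 folds and a median of 0.017, which ran from -0.02 to 0.092 over the alternatives. EdgeR and limma-voom called 0 of them. An unadjusted edgeR p under 0.05 was found for 3, all with positive folds, and for 12.8% of all genes. DESeq2 called 2 of the 3, where it called 4.52% of all genes. Gab1, the docking protein that joins gp130 to this branch, had 70.6 and 85.3 CPM on cuprizone and 44.6 and 39.9 on mock, a log2 fold of 0.81 (SE 0.21, edgeR adjusted p = 0.233, and adjusted p = 0.0409 with DESeq2). Sos1, a RAS activator named after its values were seen, was another of the 3, with a log2 fold of 0.85 (SE 0.31). Map2k1, the most abundant tested gene of the branch by its mean, overlapped between the groups, with 530 CPM ± 37.6 against 499 ± 17.2 (SD, n = 2 each).

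Cebpd, a transcription factor of the acute-phase response that STAT3 helps to induce, had 36.4 and 18.8 CPM on cuprizone and 25.0 and 26.3 CPM on mock. The mock libraries lay between the cuprizone libraries, which differed 1.93-fold from each other. The log2 fold was 0.03 (SE 0.37) and turned negative in 4 of the 12 alternatives, down to -0.50 without cuprizone replicate 1. Of the 50-base stretches in Cebpd transcripts, 13.7% also lie on the opposite strand in transcripts of Spidr, and the strand setting of the counting is not given in the sources used here. Of the 5 C/EBP factors tested, 4 had positive folds with a median of 0.03, 0 were called by edgeR, DESeq2 or limma-voom, and 0 had an unadjusted p under 0.05. That median was -0.50 without cuprizone replicate 1 and 0.27 without cuprizone replicate 2. Cebpg, the most abundant of the 5 by mean CPM, had 56.1 CPM ± 1.19 against 44.6 ± 4.38 (SD, n = 2 each), and its log2 fold was 0.26 (SE 0.21).

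Serpina3n, a secreted inhibitor of serine proteases, had cuprizone levels that did not reach the mock range. It had 10.2 and 12.1 CPM on cuprizone against 41.8 and 26.3 CPM on mock. The mock mean of 34.0 CPM ± 11.0 was 3.06 times the cuprizone mean of 11.1 ± 1.36 (SD, n = 2 each), and the mock libraries differed 1.59-fold from each other. The log2 fold was -1.68 (SE 0.35), below those of all but 2.93% of the genes tested, with an edgeR adjusted p of 0.178. DESeq2 gave adjusted p = 0.00196, over 12 alternatives the adjusted p ran from 0.00196 to 0.505, and DESeq2 alone was past the threshold. Leaving out mock replicate 2 gave a log2 fold of -1.96, and leaving out mock replicate 1 gave -1.31. DESeq2 thus called 2 of the 9 members, Jak1 and Serpina3n, where it called 4.52% of all genes.

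Serpina3n is one of a cluster of related genes on chromosome 12, and reads shared between copies could have been dropped or split. Of its distinct 50-base stretches, 6.9% also occur in transcripts of another gene, mostly Serpina3e-ps, Serpina3g and Serpina3c, and of its 100-base stretches 0.204%. Of the other 10 cluster genes listed, 8 had 0 counts in every library. Serpina3g had 5 counts and Serpina3h had 1, all in mock replicate 1. The 3 pseudogenes of the cluster in the tables, Serpina3e-ps among them, also had 0 counts in every library.

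Serpina3n was measured beside other genes of the STAT3 programme. Of 25 genes described as STAT3 targets, 23 could be tested, 12 with positive and 11 with negative log2 folds and a median of 0.0038, which ran from -0.10 to 0.074 over the alternatives. Of 13 pan-reactive astrocyte genes 9 could be tested, 7 of them negative, with a median of -1.20, which is the fold of Gfap itself. Among the negative folds, those of Osmr, Hspb1 and Cp had wide SEs, at 2.38, 1.43 and 1.30. Without overlap 5 of the 9 lay lower and 1 higher on cuprizone, where 18.9% and 25.7% of all genes did. Lcn2, Timp1 and Steap4 had 0 counts in every library. EdgeR called 0 in either list, with 6 and 4 at an unadjusted p under 0.05, against 12.8% of all genes. DESeq2 called Gfap, Vim and Serpina3n, and limma-voom called Gfap, where they called 4.52% and 0.297% of all genes. Gfap, the filament protein whose promoter drives Cre, had 385 and 451 CPM on cuprizone and 963 and 870 on mock, a log2 fold of -1.20 (SE 0.15, edgeR adjusted p = 0.0838, DESeq2 adjusted p = 2.01e-10, limma-voom adjusted p = 0.023). Vim, the filament vimentin, named after its values were seen, had 27.3 and 47.3 CPM against 11.5 and 17.8, a log2 fold of 1.28 (SE 0.39, edgeR adjusted p = 0.272, DESeq2 adjusted p = 0.0437). For Serpina3n, Gfap and Vim the groups did not overlap, with Vim the higher on cuprizone and the other two the lower.

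**Figure D3:**
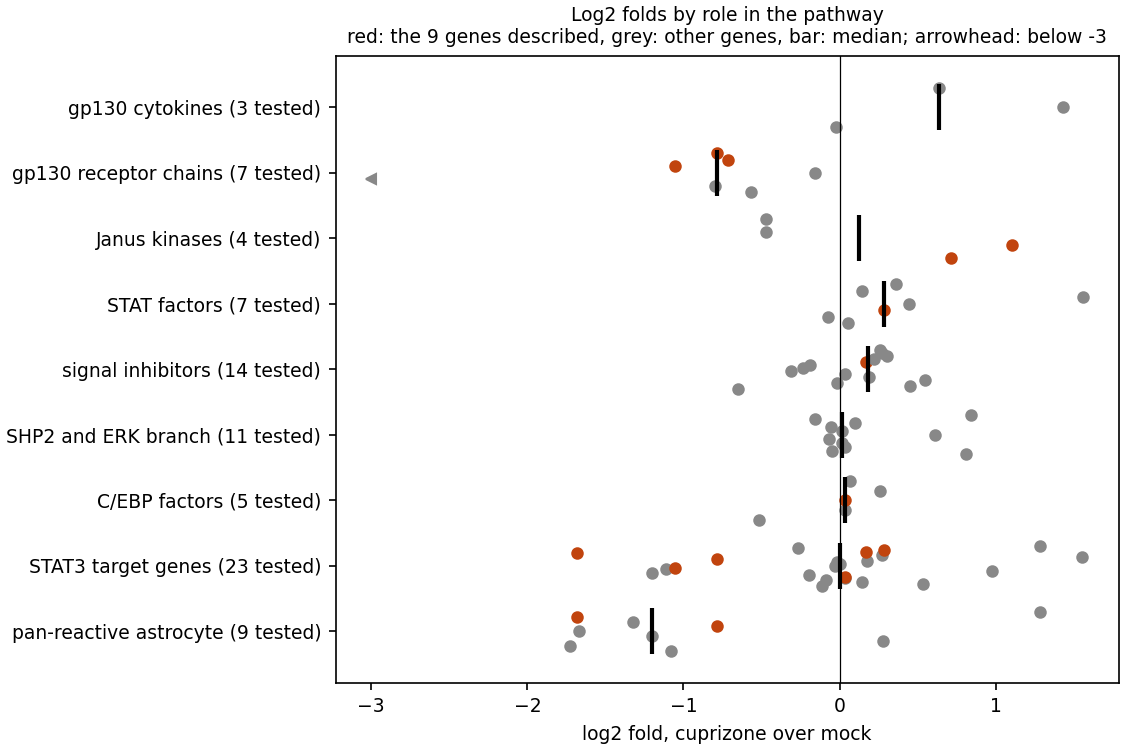
Log2 fold of cuprizone over mock (horizontal axis) for each tested gene of 9 lists ordered by role; red points are the 9 genes described, grey points other genes, black bars list medians, and the arrowhead is Il27ra, at 0 counts in both cuprizone libraries. All 7 receptor chains lie below 0, although the fold of Osmr turns positive when some single libraries are left out. Their median of -0.78 is the fold of Osmr itself.

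Per kilobase of exon, which allows levels of different genes to be set side by side, the order of the members differed between the groups. In mock libraries Serpina3n came first with a mean level of 16.5 CPM per kb and Jak1 second with 15.2, and their libraries overlapped. Cebpd at 6.84 and Stat3 at 6.48 CPM per kb overlapped with each other, as did Lifr at 4.61 and Il6st at 3.30. Jak2 followed at 1.59 CPM per kb, clear of its neighbours, and Socs3 at 0.269 overlapped with Osmr at 0.253. In cuprizone libraries Jak1 led at 26.2 CPM per kb, clear of Stat3 at 8.28, while the libraries of Cebpd at 7.37 overlapped with those of Stat3 and of Serpina3n at 5.39. Jak2 at 3.60 and Lifr at 2.95 overlapped, and Il6st stood at 1.67, clear of Lifr, ahead of Socs3 at 0.319 and Osmr at 0.155, which overlapped. Serpina3n thus went from the 79.9th to the 58.6th percentile of all tested genes by level per kb. Exon length here is the union over all isoforms, so a gene with long unused exons reads lower.

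**Figure D4:**
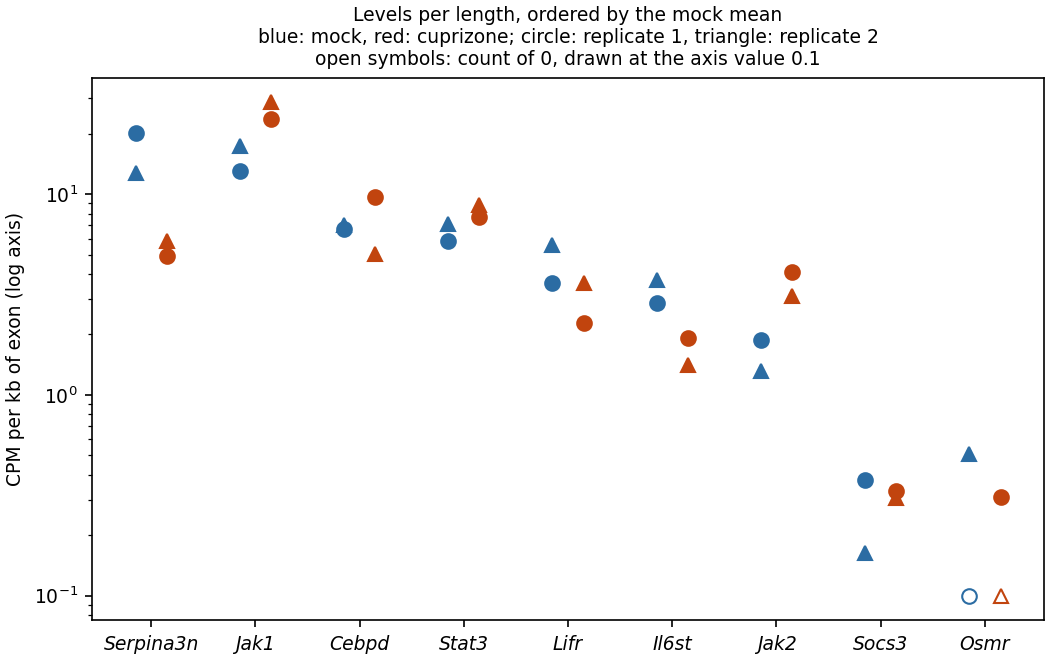
Level per kilobase of exon (CPM per kb, logarithmic vertical axis) of the 9 genes in each library, ordered by the mock mean; blue is mock, red cuprizone, and open symbols are counts of 0 drawn at the foot of the axis. Serpina3n leads in mock with a mean of 16.5 and Jak1 leads in cuprizone with 26.2.

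Ratios within a library do not depend on its total. Jak1 stood at 12.3 and 20.4 times Il6st per kb in the cuprizone libraries and at 4.57 and 4.66 times in the mock libraries. Stat3 stood at 1.57 and 1.50 times Serpina3n per kb in cuprizone and at 0.290 and 0.557 times in mock libraries. Neither ratio overlapped between groups. That follows from the levels above, where Jak1 and Stat3 lay higher and Il6st and Serpina3n lower in both cuprizone libraries, and adds no separate result. The ratio of Il6st to Lifr overlapped, at 0.849 and 0.388 in cuprizone and 0.790 and 0.667 in mock libraries. So did Jak1 over Jak2, at 5.80 and 9.26 in cuprizone and 6.98 and 13.3 in mock libraries. Stat3 over Socs3 overlapped too, at 23.3 and 28.9 in cuprizone and 15.6 and 43.5 in mock libraries. These pairs were chosen after the levels were seen and carry no test.

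The genes with the pattern most like Stat3 over the 4 libraries, by Euclidean distance between centred log2 profiles, were Elavl4 (0.0070), Dlgap1 (0.021) and Ppp1r14a (0.0355). Those most like Serpina3n were Sorcs2 (0.204), Pcdhb7 (0.246) and Lman2l (0.290). Over 4 libraries many genes share a pattern, and these names are a description only.

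The pull-down held RNA of other cells in both groups, and some of their markers differed between the groups. Of all genes tested, 18.9% lay lower and 25.7% higher in both cuprizone libraries than in both mock libraries. Summed over 16 astrocyte markers, the level was 7348 and 8864 CPM on cuprizone and 11740 and 11492 on mock. Of the 16, 8 lay lower in both cuprizone libraries and none higher. Neuron markers (12 genes) summed to 15632 and 15721 CPM on cuprizone and 13216 and 13972 on mock, with 6 of the 12 higher and 3 (Syt1, Thy1 and Slc17a7) lower in both cuprizone libraries. Snap25 alone, a synaptic protein gene, had means of 9954 CPM on cuprizone and 8294 on mock. Oligodendrocyte markers (12 genes) summed to 10728 and 13912 CPM against 13336 and 15499. Of these 12, 5 lay lower and 2 (Ermn and Aspa) higher in both cuprizone libraries. Markers of oligodendrocyte precursors (7 genes) summed to 456 and 607 against 558 and 754, with 5 of the 7 lower in both cuprizone libraries and none higher. Ependymal markers (6 genes) overlapped in their sums, at 39.9 and 77.8 CPM on cuprizone and 170 and 47.9 on mock. Ttr, one of them named after its values were seen, had 44 and 1165 counts on cuprizone and 2880 and 546 on mock. Microglia and macrophage markers (12 genes) summed to 22.0 and 21.1 CPM against 35.9 and 48.0, with Cx3cr1, Aif1 and Ptprc at 0 in both cuprizone libraries. Markers of endothelium summed to 11.4 to 24.0, of pericytes to 16.8 to 31.4 and of fibroblasts to 21.6 to 65.3 CPM over the 4 libraries, with no overlap between groups and the cuprizone sums below, and Cdh5 and Abcb1a, defining for endothelium, were at 0 in all. Most of the fibroblast sum was Pdgfra, also a precursor marker, with means of 17.2 CPM on cuprizone and 37.9 on mock. Of the 4 pericyte markers tested, 3 had positive log2 folds, and the median was 0.58. The exception was Rgs5, with means of 7.92 CPM on cuprizone and 21.4 on mock. Of the 4 endothelial markers tested, 3 had negative folds and 1 a positive one. Among them Itm2a had means of 5.57 CPM on cuprizone and 14.6 on mock. The lower sums thus do not stand for every marker, and the part of single genes in them was not tested. The part of these shifts in the levels of the 9 genes was not tested, and in bulk RNA fewer cells of a type and less RNA per cell cannot be told apart. Library totals ran from 21209517 to 23822620 counts. Transcripts of the mitochondrial genome summed to 32.7 and 31.6 CPM on cuprizone and 516 and 502 on mock. Of its 15 genes listed 9 were tested, and edgeR called 5 of them lower, of 8 genes called lower in all. The cause of this difference, and its bearing on the levels of the members, was not tested.

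On GRCm38, as GENCODE M21 gives them, the protein-coding genes lie as follows. Il6st (ENSMUSG00000021756) spans 112464070 to 112510086 on chromosome 13, Lifr (ENSMUSG00000054263) 7090614 to 7197489 and Osmr (ENSMUSG00000022146) 6813577 to 6874969 on chromosome 15. Jak1 (ENSMUSG00000028530) spans 101152367 to 101265282 on chromosome 4 and Jak2 (ENSMUSG00000024789) 29251828 to 29313080 on chromosome 19. Stat3 (ENSMUSG00000004040) spans 100885098 to 100939540 and Socs3 (ENSMUSG00000053113) 117966079 to 117970047 on chromosome 11. Cebpd (ENSMUSG00000071637) spans 15887286 to 15891031 on chromosome 16 and Serpina3n (ENSMUSG00000021091) 104406729 to 104414329 on chromosome 12. The counting was per gene, so no exon, intron or untranslated region is resolved.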

How the data were processed

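The authors deposited raw counts per Ensembl gene, 1 table per library. Per the submitters' processing notes, FastQC 0.11.9, STAR 2.5.4b and featureCounts 1.6.0 were used with GRCm38 (mm10). Which annotation release, strand setting and rule for multi-mapping reads applied is not given in the sources used here. Symbols matched 55144 of 55471 ids; the other 327 held at most 0.023% of any library.

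CPM are on library totals. A count of 0 allows up to 3 counts, 0.126 to 0.141 CPM by library, for counting error only. Differences were tested with edgeR 4.0.16 (R 4.3.3): filterByExpr, TMM factors, robust glmQLFit with its default dispersion method, glmQLFTest, 2-sided, without block, Benjamini-Hochberg over 15816 genes, threshold 0.05. Each SE was derived as the absolute log2 fold over the square root of F. The fit was tested on simulated data. The labels call the libraries biological replicates without naming animals, so p-values reflect only how these libraries vary.

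Alternatives were RLE factors, library totals, DESeq2 1.42.0, limma-voom (limma 3.58.1), the bias-adjusted dispersion method, other filters, a replicate block and leaving out each library. The pattern measure used log2(CPM + 0.5) for genes with a mean of at least 5 CPM. Named besides the 9 were, per list, genes called, or else the smallest unadjusted p and the highest mean CPM. Some genes that this rule names are not reported here. The members and lists were chosen with earlier results of these data known.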

Additional observations from a re-analysis of the deposited data

How the results depend on the processing

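No alternative fit reversed Stat3, Il6st, Lifr, Jak1, Jak2 or Serpina3n. Cebpd was at -0.052 with limma-voom, -0.037 with the replicate block and -0.50 to 0.43 with 1 library left out, Socs3 at -0.28 to 0.89 and Osmr at -9.12 to 8.39 in the latter; the cause was not tested. Members called were 1 higher and 1 lower with DESeq2 and 0 in the other fits, and Socs3 was not tested with a mean CPM minimum of 1. Of the other pathway genes, DESeq2 called 3 higher and 1 lower, and limma-voom, the bias-adjusted dispersions, no filter and a mean CPM minimum of 1 each called 1 lower, Gfap. Over all genes, 5 higher and 8 lower became 264 and 451 with DESeq2, 9 and 38 with limma-voom, 9 and 42 with bias-adjusted dispersions, 45 and 146 with no filter, 14 and 54 with a mean CPM minimum of 1, 5 and 5 with the replicate block, and 2 to 32 and 3 to 40 with 1 library left out, where a lone library is assumed to vary like the other group. Same-numbered libraries did not deviate together (r = 0.002 across genes, which are not independent replicates). With 2 libraries per group this cannot show whether same-numbered samples were handled together. The block changed no member's call. With TMM factors 3 instead of 2 members lay lower without overlap. Socs3 and Osmr, with the fewest counts of the 9, had the largest SEs.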
